A study of Homo sapiens with 6 samples.

Results

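Clusters in the coding sequence of mRNAs are the subject here. A cluster is a stretch of genome where PARalyzer, the program the authors used on the mapped reads, found overlapping reads with T-to-C conversions. Its deposited row names the kind of transcript region it lies in, and every row whose region was coding was taken. G20 contributed 9309 coding clusters out of 38817 clusters of any region. G35 contributed 4339 of 68049, G45 2654 of 57710, HuR replicate 1 365 of 39351 and HuR replicate 2 19310 of 1513157. That made 35977 coding clusters of 1717084 clusters in these 5 libraries. The Total table names no region, so its 7226 clusters that overlapped one of these on the same strand were taken, out of 200602.

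All libraries came from HEK293, an established human embryonic kidney cell line, grown with the uridine analog 4SU, crosslinked with UV at 365 nm and digested with RNase T1, an enzyme that cuts RNA after G. PAR-CLIP purifies a tagged protein with the RNA crosslinked to it, and a crosslinked 4SU is read as C in place of T in the cDNA. G20, G35 and G45 are gel slices at about 20, 35 and 45 kDa of a FLAG M2 immunoprecipitation from cells with a doxycycline-inducible GFP, which is not an RNA-binding protein, so they hold the background of the method. The HuR libraries are 2 replicates of the same procedure from cells with a doxycycline-inducible HuR, while Total was made from lysate without immunoprecipitation, treated with proteinase K and depleted of rRNA. Each slice and Total is 1 library with no replicate. The labels do not say whether the HuR replicates were separate cultures, so their spread may be technical. The libraries held between 6187300 reads in G35 and 38644636 reads in G20, and the smallest level that 3 reads can show ranged from 0.0776 RPM (reads scaled to the size of the library) in G20 to 0.485 RPM in G35.

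HuR, the product of ELAVL1, is known as a binder of U-rich and AU-rich RNA, mainly in 3'UTRs and introns, where it stabilises mRNAs and takes part in splicing. Coding sequence is the part of an mRNA that ribosomes read, and its base composition is held by the protein code, so long runs of U are less common there than in introns or 3'UTRs. Introns end in a stretch rich in U and C just before the next exon, the polypyrimidine tract, which splicing factors recognise. The reads were mapped to the genome without splicing, so a cluster can run across the edge of an exon into the intron. Where it does so by a few bases only, spliced RNA that happens to match the intron cannot be told apart from unspliced RNA.

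The clusters that carry the results are shown first, 5′ to 3′ in RNA direction, as the files write them, with T for U, and with hg19 positions. The genes with the most coding clusters in a slice included SRRM2 (a protein of nuclear speckles and the spliceosome), PRRC2A and SRCAP (a chromatin remodelling ATPase). The most read G20 coding cluster of each is shown, with runs of 3 or more Gs in capitals:
SRRM2, chr16:2815100-2815146, plus strand, exon 11 of 15: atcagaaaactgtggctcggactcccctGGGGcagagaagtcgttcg
PRRC2A, chr6:31600105-31600204, plus strand, exon 16 of 31: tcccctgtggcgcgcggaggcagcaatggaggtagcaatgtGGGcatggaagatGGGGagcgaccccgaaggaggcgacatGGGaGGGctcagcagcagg
SRCAP, chr16:30718513-30718563, plus strand, exon 5 of 34: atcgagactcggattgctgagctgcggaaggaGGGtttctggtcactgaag
G made up between 31.9% (SRRM2) and 44.0% (PRRC2A) of these 3 sequences, and U between 11% (PRRC2A) and 23.5% (SRCAP). Over all coding clusters of the gene in G20, mean G was 24.5% in SRRM2, 34.8% in PRRC2A and 36.4% in SRCAP. The mean of all G20 coding clusters was 34.5%. SRRM2 was thus not G-rich for a slice, and its clusters in HuR replicate 2 also had 24.5% G. The 3 sequences printed here held the following reads. They held 183 reads (SRRM2), 120 (PRRC2A) and 66 (SRCAP), with 14.2, 9.17 and 31.8 T-to-C events per 100 reads in the same order.

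A different kind of coding cluster appeared in HuR replicate 2, at the 5′ edge of exons. Of the clusters there with at least 10 bases past every annotated exon, an exon part wholly in coding sequence and at most 60 bases in all, these 4 had the most reads. Capitals mark the exon and lower case the end of the intron before it:
MRPL39, chr21:26965270-26965306, minus strand, exon 8 of 10: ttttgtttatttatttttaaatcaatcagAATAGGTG
PUM2, chr2:20478569-20478610, minus strand, exon 13 of 21: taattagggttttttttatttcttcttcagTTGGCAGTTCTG
YWHAE, chr17:1264568-1264603, minus strand, exon 4 of 6: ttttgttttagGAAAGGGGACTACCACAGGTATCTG
UBE2B, chr5:133725893-133725925, plus strand, exon 6 of 6: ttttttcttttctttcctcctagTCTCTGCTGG
Their U share ran from 33.3% in YWHAE (a 14-3-3 protein) to 57.6% in UBE2B (a ubiquitin-conjugating enzyme), and the uridines lay mostly in the intron. MRPL39 (a mitochondrial ribosome protein) held 308 reads with 126 events per 100 reads, and PUM2 (a Pumilio RNA-binding protein) 262 reads with 113 events per 100 reads.

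Some clusters with a run of U had every base in coding sequence and lay over no background site. Of these, the 2 with the most reads in HuR replicate 2 were in MDN1 (a ribosome assembly ATPase) and NPLOC4 (a cofactor of the p97 ATPase), with runs of 5 or more Us in capitals:
MDN1, chr6:90489933-90489953, minus strand, exon 11 of 102: catcattaaataTTTTTcaag
NPLOC4, chr17:79536090-79536108, minus strand, exon 14 of 17: ttacacTTTTTctatttcg
They held 86 reads (MDN1) and 69 reads (NPLOC4).

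Where the deposited region was checked against GENCODE, the label held for most clusters. Between 86.1% (HuR replicate 1) and 99.1% (G45) of the coding clusters outside the mitochondrial genome touched coding sequence of a protein-coding transcript. Every base lay in coding sequence for 93.6% of them in G20, 90.1% in G35 and 90.8% in G45, but for 72.2% in HuR replicate 1 and 77.6% in HuR replicate 2. The sequence of each coding cluster outside the mitochondrial genome equalled GRCh37 at its position. Mitochondrial positions are not given, because the mitochondrial sequences of hg19 and GRCh37 differ.

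Coding clusters made up a larger part of the clusters in the background slices than in HuR. The share was 23.98% in G20 (95% Wilson interval 23.6 to 24.4). It was 6.38% (6.20 to 6.56) for the G35 slice, and the G45 slice had 4.599% (4.43 to 4.77). In HuR replicate 1 it was 0.928% (0.838 to 1.03) and in HuR replicate 2 1.28% (1.26 to 1.29), or 1.10% ± 0.246 (SD, n = 2). Every slice was above both HuR replicates, and G20 was far above the other slices. With clusters of at least 25 reads the slices had 16.7% (G20), 1.57% (G35) and 1.60% (G45), against 1.52% in HuR replicate 1 and 0.860% in HuR replicate 2, so that G35, G45 and HuR replicate 1 lay close together. Over libraries the difference of 10.6 percentage points had an exact two-sided permutation p of 0.3, where 3 libraries against 2 cannot go below 0.1. It was 5.44 points with clusters of at least 25 reads (exact p = 0.5) and 4.39 points without G20. The intervals cover counting error only, since the reads carry no molecular identifiers.

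Counted in reads, the order changed. Coding clusters held 0.565% of all G20 reads, 3.24% in G35, 2.03% in G45, 2.02% in HuR replicate 1 and 1.01% in HuR replicate 2. Most of these reads lay in a few clusters outside G20 and HuR replicate 2: the 10 most read coding clusters held 78.3% of coding reads in G35, 76.0% in G45 and 96.3% in HuR replicate 1, compared to 21.6% in G20 and 31.0% in HuR replicate 2. The median coding cluster was small in every library, at 10 reads in G20, 6 in G35 and G45, and 7 in both HuR replicates. Clusters of at least 1 RPM were also taken alone. Their coding share was 12.8% in G20, 5.32% in G35, 2.95% in G45, 1.32% in HuR replicate 1 and 0.866% in HuR replicate 2. This cutoff stands at a different read count in each library. It kept 778 of 9309 coding clusters in G20 and 2074 of 4339 in G35. The RPM of G20 is also scaled to a total that a few clusters outside coding sequence dominate.

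**Figure D1:**
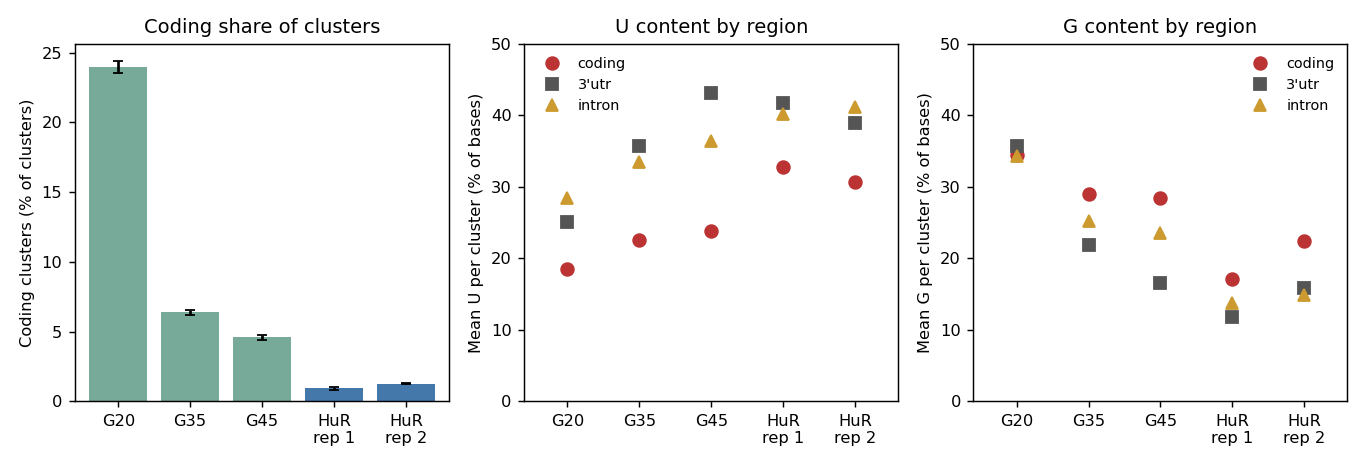
Left, coding clusters as a percentage of all clusters of each library, with 95% Wilson intervals. Middle and right, the mean percentage of U and of G per cluster for coding, 3'UTR and intron clusters: in every library the coding clusters had the lowest U share of the 3 regions, and in all but G20 the highest G share. The 5'UTR is not drawn.

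In every library, coding clusters were poorer in U than 3'UTR clusters of the same library. Their mean U share per cluster was 18.5% in G20, 22.5% in G35, 23.8% in G45, 32.9% in HuR replicate 1 and 30.7% in HuR replicate 2. The 3'UTR clusters had 25.1%, 35.7%, 43.1%, 41.7% and 39.0% in the same order. The gap was thus widest in G45, at 19.3 percentage points, and narrowest in G20, where U fell by 6.62 percentage points from 3'UTR to coding. Coding clusters were lower in 5 of 5 libraries, by 11.3 points on average (exact two-sided sign-flip permutation p = 0.062, the smallest that 5 libraries allow).

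G went the other way in 4 of 5 libraries. Coding clusters held 34.5% G in G20, 29.0% in G35, 28.5% in G45, 17.1% in HuR replicate 1 and 22.5% in HuR replicate 2, while the 3'UTR clusters held 35.8%, 21.9%, 16.5%, 11.8% and 15.9%. In G20 the coding clusters were 1.30 points below the 3'UTR clusters, and in the other 4 libraries they were between 5.39 and 11.9 points above. The mean difference of 5.93 points had an exact two-sided sign-flip permutation p of 0.125. The coding clusters of the slices held more G and less U than those of either HuR replicate, with no overlap of the libraries (HuR means 19.8% ± 3.75 G and 31.8% ± 1.55 U, SD, n = 2). The 5'UTR clusters held still more G than coding clusters in every library, at 40.4%, 34.04%, 31.6%, 19.3% and 23.97% from G20 to HuR replicate 2. In G20 and G35 the intron clusters, with 34.4% and 25.3% G, were nearer to coding than the 5'UTR clusters were. The U share of the 5'UTR clusters was 18.2%, 24.1%, 27.8%, 37.5% and 33.6%, which was below coding in G20 and above it elsewhere. It was nearer to coding than that of 3'UTR or intron clusters in every library.

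Runs of U also separated the slices from HuR, while runs of G did not separate G45 from HuR beyond counting error. At least 5 Us in a row stood in 0.494% of G20 coding clusters (0.371 to 0.658), 1.61% in G35, 1.81% in G45, 5.48% in HuR replicate 1 (3.57 to 8.31) and 11.4% in HuR replicate 2. The 3'UTR clusters of the same libraries had such a run in 8.91%, 24.4%, 39.8%, 24.7% and 24.6%. Only in HuR replicate 1 did every cluster have at least 2 positions with conversions. With that minimum, coding clusters had the run in 0.622% (G20), 2.02% (G35), 2.81% (G45) and 18.2% (HuR replicate 2). At least 4 Gs in a row stood in 22.2% of the coding clusters of G20, 14.0% in G35, 10.3% in G45, 9.86% in HuR replicate 1 and 9.44% in HuR replicate 2. Most coding clusters ended in G, from 78.3% in G45 to 92.7% in HuR replicate 2, and most were preceded by a G in the genome, from 68.7% in HuR replicate 1 to 90.0% in G20, which are the bases RNase T1 cuts after.

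Coding clusters of the slices were poorer in U than the 100 bases on each side in the genome, and those of HuR were richer. These flanks are unspliced, so for U and G alike they can hold intron bases. Cluster minus flank, G20 had −2.93 percentage points, G35 −2.17 and G45 −1.27. HuR replicate 1 had 3.598 and HuR replicate 2 0.859. The slices lay below both HuR replicates by 4.35 points on average (exact two-sided permutation p = 0.1, the smallest possible). This separation was the rule for flagging the result, so that p is not independent evidence. Averaged over the 5 libraries the difference was −0.381 points (exact sign-flip p = 0.812). Among clusters with every base in coding sequence, the difference in HuR replicate 2 was −0.0699 points, and with flanks of 30 bases it was 0.437 in G45. With clusters of at least 25 reads, G35 (0.969) and G45 (0.660) were above their flanks too, though below both HuR replicates (6.90 and 5.64). Weighted by reads, G35 (3.18) and G45 (4.80) lay above HuR replicate 2 (3.13), so the separation of slices and HuR was lost. For G, the clusters of the slices were richer than their flanks, G20 by 5.53 points, G35 by 2.85 and G45 by 2.92. HuR replicate 1 clusters had 3.99 points less than their flanks on this measure (−3.99), and HuR replicate 2 differed by −0.00342 points.

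The U runs of HuR replicate 2 were most frequent in clusters across the 5′ edge of an exon. There, 1948 coding clusters crossed the 5′ edge of an exon and 829 the 3′ edge, which was 10.1% and 4.32% of its coding clusters outside the mitochondrial genome. The same shares stood at 0.511% and 0.750% for G20, 2.71% and 2.82% for G35, and 2.60% and 2.87% for G45. HuR replicate 1 did not share the excess at 5′ edges, with 2.14% there and 5.34% at 3′ edges (6 and 15 clusters). A run of 5 Us stood in 42.3% (40.1 to 44.5) of the HuR replicate 2 clusters at 5′ edges and in 15.0% (12.7 to 17.5) of those at 3′ edges. Among clusters with every base in coding sequence it stood in 6.72% (6.33 to 7.13). The part of the 5′ edge clusters outside the exon was 55.3% U, against 24.6% in the part inside, and 805 of the 1948 had the run in the intron, against 26 with a run in the exon. At the 3′ edge the part outside the exon was 35.1% U.

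The slices had the same order with smaller differences. The outside part of 5′ edge clusters was 38.6% U in G35 (116 clusters) and 38.0% in G45 (67 clusters), against 21.2% and 23.9% inside the exon. In G20 it was 19.9% against 17.2%, over 47 clusters, none of which held a run of 5 Us (0 of 47, Wilson upper limit 7.56%). HuR replicate 1 had 6 clusters at 5′ edges, with 40% U outside and 23.6% inside the exon. None held a run, which with 6 clusters allows up to 39.0%. The median length outside the exon was 3 bases in G20, 8 in G35, 6 in G45, 8.5 in HuR replicate 1 and 14 in HuR replicate 2. Measured against exons of all protein-coding transcripts, 96.3% of the 5′ edge clusters of HuR replicate 2 ran past every annotated exon.

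**Figure D2:**
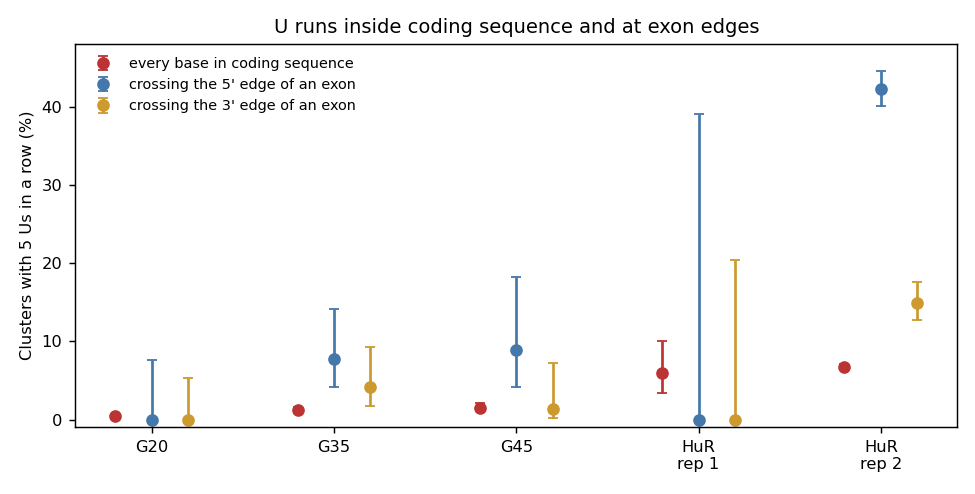
Percentage of coding clusters with 5 or more Us in a row, by position against exons, with 95% Wilson intervals. In HuR replicate 2 the clusters across the 5′ edge of an exon stood at 42.3%, compared to 6.72% for clusters with every base in coding sequence; the wide intervals of HuR replicate 1 rest on 6 and 15 clusters.

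Within the coding sequence, the clusters of all 3 slices lay slightly nearer to the start codon than those of HuR. Their median position was at 45.7% of the coding length in G20, 46.7% in G35 and 45.3% in G45, against 61.0% in HuR replicate 1 and 50% in HuR replicate 2. The first 100 bases held 10.1% (9.46 to 10.7) of the G20 clusters that could be placed, 6.91% in G35, 8.40% in G45, 5.91% in HuR replicate 1 and 5.95% in HuR replicate 2. These bases are 5.80% of all coding bases in 19540 canonical coding sequences, though not weighted by how much of each mRNA was present. The last 100 bases before the stop codon held 8.94% (8.51 to 9.40) of the clusters in HuR replicate 2 and 13.3% (9.30 to 18.7) in HuR replicate 1, where the slices had 6.76% (G20), 6.39% (G35) and 5.68% (G45). So both HuR libraries were higher than the slices near the stop codon. Near the start codon G20 and G45 were above HuR replicate 2 beyond counting error, while the interval of HuR replicate 1 (3.41 to 10.05) reached into those of all slices.

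Summed over clusters, coding reads carried fewer conversions than 3'UTR reads in every library. Events per 100 reads were 23.4 in the coding clusters of G20, 35.8 in G35, 38.9 in G45, 6.002 in HuR replicate 1 and 78.0 in HuR replicate 2, compared to 43.0, 89.3, 73.1, 87.6 and 101.3 in the 3'UTR clusters. The mean difference was −42.4 events per 100 reads (exact two-sided sign-flip permutation p = 0.062, the smallest possible). Without the 10 most read clusters of each library and region, coding clusters had 23.3, 102.6, 84.1, 97.7 and 100.8 events per 100 reads and 3'UTR clusters 29.4, 92.9, 66.8, 94.4 and 101.5, and the mean difference turned to 4.71 (exact p = 0.375). Coding stayed lower in G20 and HuR replicate 2 and turned higher in G35, G45 and HuR replicate 1, where the coding value of HuR replicate 1 moved from 6.002 to 97.7. Coding clusters also hold fewer Ts per read. As a share of all Ts counted in the reads, converted and not, events were 5.93% in G20, 10.7% in G35, 10.2% in G45, 2.16% in HuR replicate 1 and 11.8% in HuR replicate 2, against 8.65%, 12.8%, 9.96%, 10.4% and 9.94% in the 3'UTR. Per T, summed over all clusters, coding was thus higher in G45 and HuR replicate 2, and lower in the other 3 libraries. These sums include the 10 most read clusters, which held 96.3% of coding reads in HuR replicate 1, 78.3% in G35 and 76.0% in G45. Values per T without them were not computed, so the order per T is not read as a trait of coding clusters at large.

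G20 stood apart in a way that did not rest on those clusters. Its coding clusters had 23.3 events per 100 reads without the 10 most read, and its median coding cluster had 20.0, where the median was 100 or 92.9 in the other 4 libraries. This was shared by its other exonic regions, with a median of 25 in 3'UTR and 20 in 5'UTR clusters, while its intron clusters had 100, as in the other slices. Total clusters over coding clusters had 14.2 events per 100 reads without the 10 most read and a median of 16.8. The coding clusters of G20 thus sat nearer to Total than to the other slices on this measure. The methods of the study define a cluster by at least 2 conversion locations, but the deposited tables of the slices and HuR replicate 2 also hold clusters with 1 location. The share of coding clusters with at least 2 conversion locations was 38.0% in G20, 26.2% in G35, 24.2% in G45 and 43.9% in HuR replicate 2. It was 100% in HuR replicate 1, whose deposited table holds no cluster under 2 locations.

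**Figure D3:**
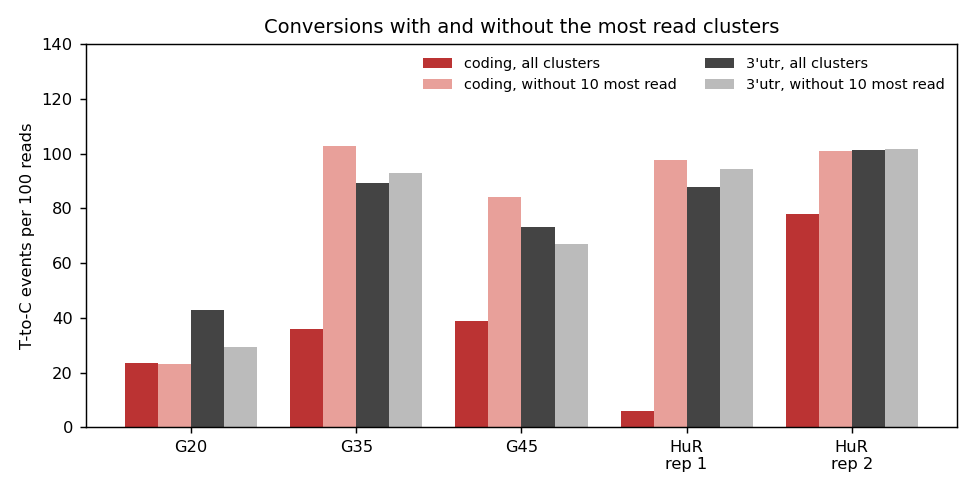
T-to-C events per 100 reads, as summed events over summed reads, for coding and 3'UTR clusters of each library, with all clusters and without the 10 most read of each region. Coding bars of G35, G45 and HuR replicate 1 rise to 102.6, 84.1 and 97.7 without those clusters, while G20 stays at 23.3.

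The most read coding clusters were sites with few other reads in the 1000 bases on either side. First in all 5 libraries was a site of 34 bases in exon 1 of GSG2 (now HASPIN, a mitotic histone H3 kinase), at chr17:3627401-3627434 on the plus strand. It held 665 RPM in G20, 19436 RPM in G35, 8124 RPM in G45, 13773 RPM in HuR replicate 1 and 1894 RPM in HuR replicate 2, and 11282 RPM in Total. Total lay between the slices here. Few of these reads were converted, with between 0.322 and 2.94 events per 100 reads over the 5 libraries and 0.319 in Total. Within 1000 bases on either side, the same strand held between 1 and 60 other reads in these 5 libraries.

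Next in all 5 libraries was a site of 19 bases in exon 3 of KCNC4 (a voltage-gated potassium channel), at chr1:110768774-110768792 on the plus strand. It held 216 RPM in G20, 1846 in G35, 3472 in G45, 3426 in HuR replicate 1 and 449 in HuR replicate 2, with between 0.362 and 0.755 events per 100 reads. Total held 8 reads there, or 0.223 RPM. In contrast to GSG2, the site was high in each immunoprecipitation and near the floor in Total.

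The site with the third most reads was converted in nearly every read in each slice and in HuR replicate 2. GPR126 (now ADGRG6, an adhesion G protein-coupled receptor), at chr6:142737016-142737035, had between 93.4 and 94.9 events per 100 reads in G20, G35, G45 and HuR replicate 2. ARSD (an arylsulfatase), at chrX:2825654-2825674 on the minus strand, had 91.1 in G35, where it was the third. In HuR replicate 1 the third was ABP1 (now AOC1, a diamine oxidase), at chr7:150554667-150554685 on the plus strand, with 660 RPM and 20.3 events per 100 reads, against 93.4 in G20, 64.9 in G35, 90.2 in G45 and 97.1 in HuR replicate 2. In RPM, GPR126 held 118 in G20, 1145 in G35, 1481.5 in G45, 88.1 in HuR replicate 1 and 250.2 in HuR replicate 2, and 2.004 in Total.

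Each of these 5 sites occurs once in GRCh37 as an exact sequence. Their RPM ranged over more than 10-fold between slices, and G35 or G45 held the highest RPM of the 3 slices at each of them. The RPM of G20 is scaled to a total that a few clusters outside coding sequence dominate. Whether the reads of these sites come from the genes they map to was not tested.

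**Figure D4:**
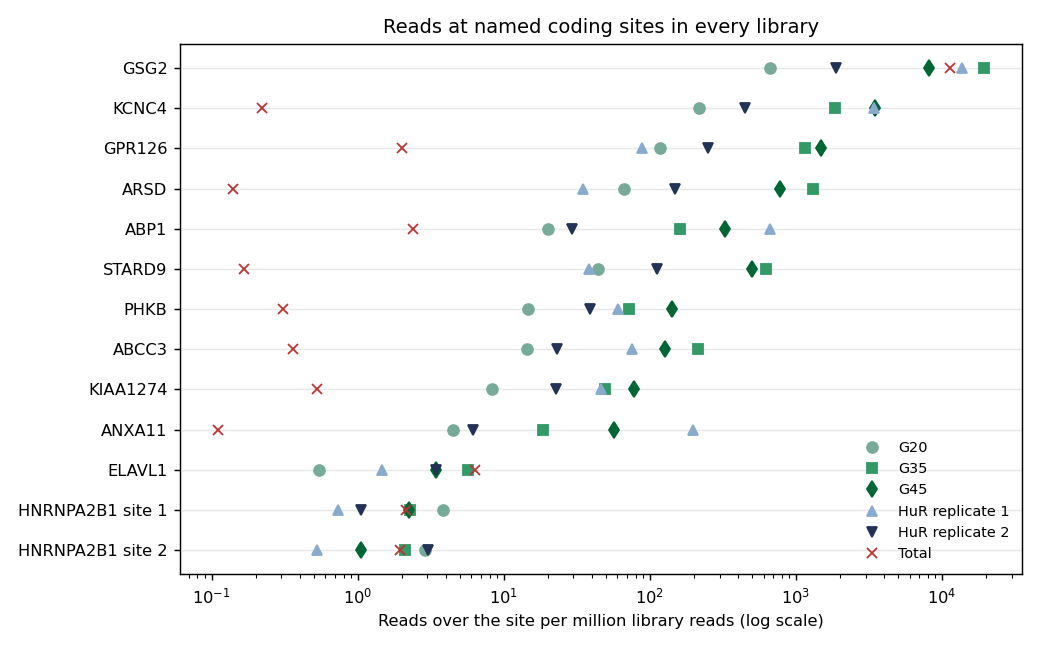
RPM at 13 named coding sites, on a log axis, in the 5 immunoprecipitations and Total. From KCNC4 down to ANXA11, Total (crosses) lies far to the left of the other libraries, while at the sites of ELAVL1 and HNRNPA2B1 it lies among them or at most slightly above.

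Merged on the same strand, the coding clusters formed 31465 loci. Of these, 28266 held clusters of 1 library, 2409 of 2 libraries, 501 of 3, 238 of 4 and 51 of all 5. HuR replicate 2 alone accounted for 16911 loci and G20 alone for 6833. All 3 slices shared 321 loci, and the HuR replicates shared 266, of which 140 had no coding cluster in a slice. HuR replicate 1 alone accounted for 56 loci, and 2223 loci held clusters of any slice and any HuR replicate. Loci without a slice cluster were thus a smaller part of the loci shared by the HuR replicates than of all HuR loci. Of the 51 loci in all 5 libraries, 25 were mitochondrial, in genes for subunits of the respiratory chain such as MT-ND6, MT-CO3 and MT-CO1. The share of loci outside the mitochondrial genome with a Total cluster was 20.2% for loci of 1 library, 40.6% for 2, 55.1% for 3, 47.03% for 4 and 53.8% (14 of 26) for all 5.

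Of the 26 nuclear loci in all 5 libraries, 19 were at most 24 bases long and 12 of these had no Total cluster. Ordered by the smallest RPM over libraries, the first 10 loci were GSG2, KCNC4, STARD9, ABP1, MT-ND6, PHKB, ABCC3, KIAA1274, ANXA11 and a further one in MT-ND6. STARD9 (a kinesin), at chr15:42955531-42955553, held from 38.4 RPM in HuR replicate 1 to 628 RPM in G35, with 6 reads in Total. PHKB (a subunit of phosphorylase kinase), at chr16:47733257-47733280, held from 14.6 RPM in G20 to 141 RPM in G45, with 11 reads in Total. ABCC3 (an ABC transporter), at chr17:48741165-48741185, held from 14.5 RPM in G20 to 214 RPM in G35, with 13 reads in Total. For KIAA1274, at chr10:72298894-72298914, the range was 8.36 RPM in G20 to 78.3 RPM in G45, and for ANXA11 (an annexin), at chr10:81926703-81926720, it was 4.48 RPM in G20 to 198 RPM in HuR replicate 1. G20, the deepest library, had the lowest RPM of the 5 libraries at 4 of these 5 sites. Its RPM is scaled to a total that a few clusters outside coding sequence dominate, so this is not read as a difference of the sites.

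The other 7 nuclear loci of this kind were longer than 24 bases, and besides GSG2 they included 2 loci in HNRNPA2B1 and 1 each in ELAVL1, HNRNPR and HNRNPH1, genes for abundant RNA-binding proteins. The loci of ELAVL1 and HNRNPA2B1 are shown from the genome, with the bases that lie in a cluster of every library in capitals:
ELAVL1, chr19:8028550-8028629, minus strand, exon 6 of 6: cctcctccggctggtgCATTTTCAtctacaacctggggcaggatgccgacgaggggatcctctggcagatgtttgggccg
HNRNPA2B1, chr7:26235467-26235525, minus strand, exon 7 of 11: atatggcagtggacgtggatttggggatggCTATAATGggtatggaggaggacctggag
HNRNPA2B1, chr7:26236021-26236100, minus strand, exon 6 of 11: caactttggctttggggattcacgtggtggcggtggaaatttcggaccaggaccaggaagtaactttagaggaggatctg
The bases in common were few, 8 in ELAVL1, and 8 and none in the HNRNPA2B1 loci. G made up 32.5% of the ELAVL1 locus and 44.1% and 35.0% of the HNRNPA2B1 loci.

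These loci were low in every library. The ELAVL1 locus held 21 reads in G20 (0.543 RPM), 35 in G35 (5.66 RPM), 26 in G45 (3.45 RPM), 14 in HuR replicate 1 (1.47 RPM) and 111 in HuR replicate 2 (3.46 RPM), with 228 in Total (6.35 RPM). The first HNRNPA2B1 locus held 148, 14, 17, 7 and 34 reads in the same order, and 77 in Total. The second HNRNPA2B1 locus held 112, 13, 8, 5 and 97 reads, and 70 in Total. With single digits in several libraries, counting error is large for these values.

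ELAVL1 itself had 5 coding clusters in G20, 3 in G35, 3 in G45, 3 in HuR replicate 1 and 17 in HuR replicate 2. In RPM over these clusters it held 3.73 in G20, 5.66 in G35, 7.03 in G45, 2.73 in HuR replicate 1 and 14.5 in HuR replicate 2. The HuR libraries come from cells that also carry an inducible HuR, so coding reads of the endogenous and the introduced mRNA cannot be told apart there. The values of HuR replicate 1 were below all 3 slices, and those of HuR replicate 2 above them.

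HuR clusters in coding sequence lay over background sites more often than other HuR clusters did. A background site is a group, that is, any stretch with at least 1 read, of G20, G35 or G45 on the same strand. Of the coding clusters, 72.6% (67.8 to 76.9) of HuR replicate 1 and 40.8% (40.1 to 41.5) of HuR replicate 2 overlapped one, compared to 36.5% (36.01 to 36.97) and 9.98% (9.93 to 10.03) of all their other clusters. The difference was 36.1 percentage points in HuR replicate 1 and 30.8 in HuR replicate 2, or 33.5 ± 3.74 (SD, n = 2). For 3'UTR clusters the overlap was 51.6% and 24.1%. Background sites also covered more of the coding sequence: 12.5% of its bases in GENCODE, compared to 5.61% of 3'UTR bases and 1.41% of the transcribed span of protein-coding genes. Without mitochondrial clusters the difference was 28.0 points in HuR replicate 1, and with clusters of at least 25 reads it was 3.21 points there and 27.0 in HuR replicate 2.

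HuR coding clusters over a background site share sequence with that site by their selection, so their composition is given as a description. In HuR replicate 2 they had 26.4% U and 27.4% G, compared to 33.6% U and 19.1% G where no background site was. Runs of 5 Us stood in 6.59% (6.06 to 7.16) of the 7880 clusters over a background site and in 14.8% (14.2 to 15.5) of the 11430 others. HuR replicate 1 had 31.7% U over background sites and 36.0% elsewhere, with 18.7% and 13.0% G, and its U runs did not differ beyond counting error, at 5.28% (3.17 to 8.67) and 6% (2.78 to 12.5). In 3'UTR clusters, U runs went the other way: 29.8% over a background site and 22.9% elsewhere in HuR replicate 2. By class, 45.1% of the HuR replicate 2 coding clusters inside an exon lay over a background site, but 19.6% (17.9 to 21.4) of those at 5′ edges. All 84 mitochondrial coding clusters of HuR replicate 1 did.

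Among the slices, coding sites recurred to a limited extent. Both other slices had a group over 14.4% of the coding clusters of G20, 23.7% of those of G35 and 27.6% of those of G45. Neither had one over 53.9%, 33.6% and 30.1%. The recurring clusters of G20 had a median of 26 reads, compared to 8 for those found in no other slice. In G35 and G45 the recurring clusters were richer in G, at 31.7% and 30.3%, than the clusters of no other slice, at 24.9% and 24.4%, while in G20 the shares were 33.9% and 34.4%.

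A Total cluster lay over 31.5% (30.6 to 32.5) of the coding clusters of G20, 23.4% (22.2 to 24.7) in G35, 26.5% (24.9 to 28.2) in G45, 61.4% (56.3 to 66.2) in HuR replicate 1 and 22.2% (21.6 to 22.8) in HuR replicate 2. The HuR replicates lay on either side of all slices, so the order of the libraries did not follow the groups (exact two-sided permutation p = 0.5). When any Total read was accepted, the shares were 85.3%, 66.7%, 65.8%, 84.9% and 57.6%.

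Genes with a coding cluster were mostly well represented in Total. Matched to GENCODE, 3508 of 19807 protein-coding genes had a coding cluster in G20 (17.7% of them), 2918 in G35 (14.7%), 1951 in G45 (9.85%), 247 in HuR replicate 1 (1.25%) and 6779 in HuR replicate 2 (34.2%). Genes with a coding cluster had a median of 106 Total reads per kb of coding sequence in the case of G20. The median was 79.6 in G35, 85.7 in G45, 155 in HuR replicate 1 and 63.2 in HuR replicate 2, compared to medians between 2.11 and 12.8 for genes without. In the highest decile of genes by Total reads per kb, 63.7% had a coding cluster in G20, 42.6% in G35, 31.6% in G45, 6.01% in HuR replicate 1 and 75.4% in HuR replicate 2. In the lowest decile the shares were between 0.152% and 3.49%. Deciles 1, 2 and 3 each had a median of 0 Total reads per kb, so many of their genes are tied. HuR replicate 2 had 3.49%, 2.27% and 6.31% in these deciles. Longer coding sequences and deeper libraries give a gene more chances to hold a cluster, and their part was not tested.

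**Figure D5:**
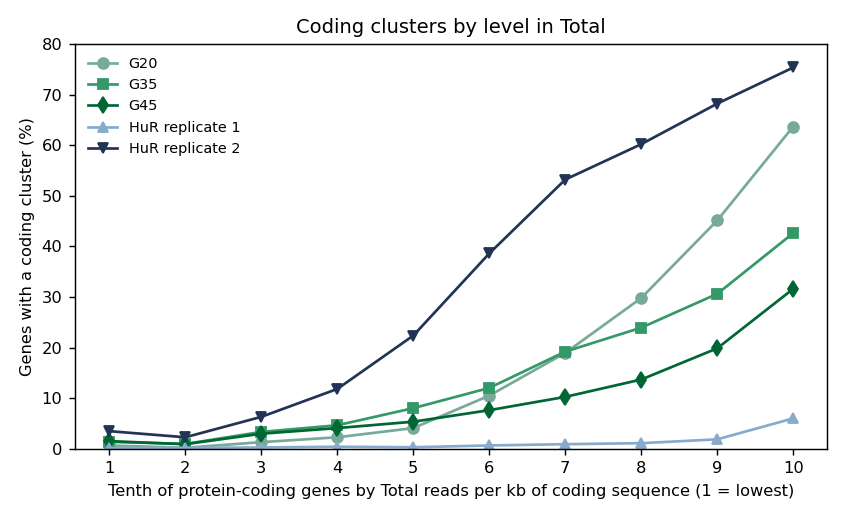
Percentage of protein-coding genes with a coding cluster, by decile of Total reads per kb of coding sequence, for each library. The lines of G20, G35, G45 and HuR replicate 2 climb from under 4% in the lowest decile to 63.7%, 42.6%, 31.6% and 75.4% in the highest. Deciles 1, 2 and 3 each had a median of 0 Total reads per kb.

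Of the 8564 genes with a coding cluster in any of the 5 libraries, 4397 had it in 1 library and 99 in all 5. All 3 slices shared 721 genes, and 5461 genes had a coding cluster in any slice (27.6% of all protein-coding genes). Of the 6779 genes of HuR replicate 2, 3685 also had one in a slice, which was 54.4% of the HuR replicate 2 genes and 67.5% of the slice genes. By the gene names of the files, 6912 genes had a coding cluster in HuR replicate 2. Of these, 78.7% also held a 3'UTR cluster and 93.4% an intron cluster. In G20 these shares were 29.0% and 29.1%, in G35 22.4% and 56.1%, in G45 15.8% and 47.97%, and in HuR replicate 1 48.6% and 56.8%. The libraries differ in how many such clusters they hold, with 75202 3'UTR and 900898 intron clusters in HuR replicate 2 against 2829 and 5915 in G20. The same shares over genes without a coding cluster were not computed, so nothing particular to genes with one is read from them.

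SRRM2 had the most coding clusters in 4 of 5 libraries, with 69 in G20, 30 in G35, 22 in G45 and 54 in HuR replicate 2, and had none in HuR replicate 1. Next in G20 were PRRC2A with 37 and SRCAP with 36. In G35 and G45 it was EEF2 (the elongation factor that moves the ribosome along the mRNA), with 19 in each, followed by IRS4 (an adaptor of insulin signalling) with 12 in G35 and MT-ND4 (a subunit of respiratory complex I) with 12 in G45. HuR replicate 2 had WNK1 (a kinase that regulates ion transport) with 36 and SON (a nuclear speckle protein) with 32. In HuR replicate 1 the first genes were all mitochondrial, with 14 clusters in MT-ND5, 12 in MT-ND4 and 10 in MT-CYB, and 84 of its 365 coding clusters (23.0%) were mitochondrial, compared to between 0.513% and 3.01% in the other libraries. EEF2 held 128 RPM in G20, 42.8 in G35, 42.2 in G45 and 6.29 in HuR replicate 2, with no cluster in HuR replicate 1. WNK1 had the reverse order of G20 and HuR replicate 2, with 5.69, 5.66, 3.85 and 11.2 RPM in the same libraries.

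The gene lists are read against the share of all protein-coding genes with a coding cluster, which was 17.7% in G20, 14.7% in G35, 9.85% in G45, 1.25% in HuR replicate 1 and 34.2% in HuR replicate 2, and against the highest decile by Total reads per kb, with 63.7%, 42.6%, 31.6%, 6.01% and 75.4%. All lists lay above the first in G20, G35, G45 and HuR replicate 2, and their median Total levels ran from 123 to 324 reads per kb. Nothing particular to a list is read from shares near those of the highest decile.

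Of 24 hnRNPs, proteins that package nuclear RNA, 24 had a coding cluster in G20, 18 in G35, 13 in G45, 8 in HuR replicate 1 and 24 in HuR replicate 2 (100%, 75%, 54.2%, 33.3% and 100%). HNRNPA2B1 had 12 clusters and 783 reads in G20 and 16 clusters and 571 reads in HuR replicate 2, and HNRNPU had 12 clusters and 617 reads in G20 and 19 clusters and 378 reads in HuR replicate 2. HNRNPH3 had 7 clusters and 94 reads in G20 but 14 clusters and 615 reads in HuR replicate 2. These 24 genes had a median of 324 Total reads per kb, above the 256 of the highest decile of all genes.

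Cytosolic ribosomal protein genes were covered in 54 of 79 cases in G20 (68.4%), 30 in G35, 28 in G45, 3 in HuR replicate 1 and 48 in HuR replicate 2 (60.8%). RPL18 had 808 reads in G20 and 67 in HuR replicate 2, and RPS19 903 and 42. The group's median was 215 Total reads per kb, and its share in G20 was near the 63.7% of the highest decile.

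Of 24 translation initiation factors, 20 had a coding cluster in G20, 13 in G35, 11 in G45, 1 in HuR replicate 1 and 22 in HuR replicate 2 (83.3%, 54.2%, 45.8%, 4.17% and 91.7%). EIF2S3, a subunit of the factor that carries the initiator tRNA, had 32 reads in G20 and 430 in HuR replicate 2, while EIF4G1, a scaffold of the cap-binding complex, had 217 and 29. EIF4G2 had 64 and 329. Elongation and poly(A) binding factors were covered in 8, 6, 4, 0 and 9 of 10 genes in the same order of libraries. Within them EEF2 had 4952 reads in G20 and 202 in HuR replicate 2, while EIF5A had 103 and 144 and PABPN1 154 and 77.

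The 23 heat shock chaperones were covered in 17 genes in G20, 14 in G35, 13 in G45, 2 in HuR replicate 1 and 18 in HuR replicate 2. The shares were 73.9% in G20 and 78.3% in HuR replicate 2, near the 63.7% and 75.4% of the highest decile. There were 656 G20 reads and 474 HuR replicate 2 reads in HSP90AA1, 483 and 144 in HSP90AB1 and 397 and 52 in CCT3. Tubulins and actins were covered in 10, 9, 5, 3 and 8 of 13 genes (76.9% in G20 and 61.5% in HuR replicate 2), led by ACTB with 583 reads in G20 and 299 in HuR replicate 2, then ACTG1 with 382 and 27 and TUBB with 210 and 122. Glycolytic enzymes were covered in 13, 9, 10, 0 and 13 of 17 genes (76.5% in both G20 and HuR replicate 2), where ENO1 (enolase) had 905 and 96 reads, GPI 513 and 66 and LDHB 287 and 131. Aminoacyl-tRNA synthetases were covered in 15, 13, 12, 0 and 18 of 20 genes (75% and 90% in G20 and HuR replicate 2), with YARS1 at 238 and 62 reads, CARS1 at 53 and 68 and FARSA at 195 and 0. Nucleolar proteins were covered in 11, 7, 5, 0 and 13 of 14 genes (78.6% and 92.9%). NCL (nucleolin) had 1200 reads in G20 and 190 in HuR replicate 2, FBL (fibrillarin) 497 and 66 and NOP56 205 and 14. All of these lists had medians between 123 and 228 Total reads per kb.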

How the data were processed

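Reads were mapped by the authors to hg19 with Bowtie (version not given in the sources used here), without splicing, and PARalyzer grouped the reads that mapped to 1 place and carried at most 2 T-to-C changes. The deposited values used are counts per group and per cluster, namely reads, conversion locations and conversion events. The reads carry no molecular identifiers. The methods ask for at least 2 conversion locations in a cluster. Of the slices and HuR replicates, only the table of HuR replicate 1 meets this throughout. The other tables also hold clusters with 1 location, and all deposited rows were used.

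Groups came from the sample labels. Coding clusters were taken by their deposited region. Overlaps needed 1 base on the same strand. Genes, exons and sequences came from GRCh37 with GENCODE v44lift37. Python 3.11.15, pandas 2.3.3, NumPy 2.4.6, SciPy 1.17.1, pysam 0.24.0 and samtools 1.23.1 were used. The overlap step was tested on simulated data, with 2000 of 2000 overlaps equal to a base by base count. Libraries were the units of all tests, which were exact two-sided permutation tests (sign flips for differences within libraries). The slices are cuts of the control gel and not replicates. The p-values therefore do not measure variation between background preparations. The 95% Wilson intervals cover counting error only.

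The genes named are those of the 3 most read coding clusters and the 3 genes with most coding clusters of each library, the first 10 loci in all 5 libraries, ELAVL1, and up to 3 members with the most reads of each gene list, plus the genes whose sequences are printed. Some items that this rule selects are not reported here. The other loci in all 5 libraries that are longer than 24 bases were named after their values were seen. Members and lists were chosen with earlier results of these data known. Alternatives covered read and location minimums, read weighting, flank length, annotation, overlap rules and leaving out a HuR replicate.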

Additional observations from a re-analysis of the deposited data

Results flagged for a closer look

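The U share of coding clusters against their flanking genome differed between the slices and HuR, by −4.35 percentage points (slices minus HuR). This result was flagged because all 3 slices lay below their flanks and both HuR replicates above them. That rule picks separated groups. The exact two-sided permutation p of 0.1, the smallest possible with 3 libraries against 2, is therefore not independent evidence. The exact sign-flip test over the 5 libraries gave p = 0.812. The flanks are unspliced genome and can hold intron bases. The signs did not hold under all settings: G35 and G45 were above their flanks with clusters of at least 25 reads (0.969 and 0.660) and, weighted by reads (3.18 and 4.80), also above HuR replicate 2 (3.13). HuR replicate 2 lay slightly below its flanks among clusters with every base in coding sequence (−0.0699) and with the region taken from the GENCODE midpoint (−0.101). Slices were single libraries, and the depth of the libraries, their gel position and the immunoprecipitated protein cannot be told apart in this design.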

How the results depend on the processing

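Coding clusters had less U and more G than 3'UTR clusters on average under all 9 alternatives of each, from −12.4 to −10.2 points for U and from 3.32 to 6.58 points for G. Taken as a share of the reads in clusters, not of all library reads, the coding share of the slices against HuR turned to −2.77 points. That share was 8.88% in HuR replicate 1, 0.687% in G20, 3.96% in G35, 2.46% in G45 and 1.39% in HuR replicate 2. Weighted by reads, the Total overlap turned to 1.48 points. As the mean per cluster, the conversion difference turned to 1.69 events per 100 reads. The conversion difference was 4.71 without the 10 most read clusters. The mean U difference to the flanks turned to 0.747 with 2 conversion locations, 2.09 with 25 or more reads, 4.00 weighted by reads, 1.22 with flanks of 30 bases and 0.901 at 1 RPM. Leaving out a HuR replicate gave a Total overlap between −34.2 (without HuR replicate 2) and 4.93 points (without HuR replicate 1).

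The excess of HuR coding clusters over background sites was 26.0 points with background sites of 5 or more reads, 15.1 with clusters of 25 or more reads, 22.2 at 1 RPM and 29.3 without mitochondrial clusters. Genes with a coding cluster numbered 1702 in G20, 905 in G35, 501 in G45 and 3974 in HuR replicate 2 with 2 conversion locations. With 25 or more reads there were 659, 128, 148, 36 and 871 in G20, G35, G45, HuR replicate 1 and HuR replicate 2, and at 1 RPM 366, 1566, 660, 91 and 603. Both HuR replicates together had 6798 genes, with 247 without HuR replicate 2 and 6779 without HuR replicate 1. The cause of these changes was not tested. The alternatives without G20, at 1 RPM, within GENCODE coding sequence and without mitochondrial clusters were chosen after seeing the data. No paired analysis was possible because only the HuR libraries carry replicate numbers.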
